A study of Mus musculus with 12 samples.

Results

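BRG1, the ATPase of the BAF chromatin remodeling complexes, was mapped by ChIPseq in cardiac precursors (CPs), and 1 list gives the enriched regions of wild-type CPs as a chromosome, a start and an end. Of the 3473 distinct regions in that list, 1464 (42.2%) lay at a promoter and were centred at or downstream of its transcription start site (TSS). These regions were chosen by their measured positions and widths: each is under 1000 bp wide, lies within 1 kb of TSSs of protein-coding genes on 1 strand only, and has its midpoint at or downstream of the nearest of these TSSs in the direction of the gene. Another 570 regions met the same conditions but had their midpoint upstream, so that 72.0% of the 2034 narrow regions at promoters of 1 strand were downstream-centred. The positions are therefore a description and were not tested.

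The CPs were wild type and came from W4/129S6 mouse embryonic stem cells, which were first grown as embryoid bodies with VEGF, Activin and BMP4 and then as monolayers with FGFs. Behind the list stand 2 BRG1 ChIP libraries and 1 library of input DNA, which gives the background, and nothing in the labels says whether the 2 libraries came from separate differentiations. The other 9 of the 12 libraries, from wild-type cardiomyocytes, from CPs and cardiomyocytes lacking BAF170 and from cardiomyocytes lacking BAF60c, were not analysed here. Because the list carries no value per library, no spread between replicates and no height can be given for any region, and sequencing depth is unknown. The intervals and tests cover counting error only, and regions are not replicates of the cells. The purity of the CPs could not be checked against marker genes from a list of positions.

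A BAF complex uses ATP to slide or evict nucleosomes, and BRG1 is its motor subunit in many cell types. At an active promoter RNA polymerase II starts from a stretch poor in nucleosomes, and the first nucleosome of the gene, called +1, lies just downstream of the TSS, in the first exon or the start of the first intron. Many mammalian promoters lie in CpG islands, stretches rich in G, C and CpG that often run from the promoter into the gene. The chromatin in this experiment was fixed with disuccinimidyl glutarate and formaldehyde, then digested with MNase, per the labels to single nucleosomes and pairs, and sonicated per the study's methods. The size of the recovered DNA is not measured by the list.

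The sequences below show what some narrow downstream-centred regions read like where no base of them belongs to an annotated UTR. Only regions of up to 300 bp were printed, while the median width of all 1464 was 360 bp. The sequences are the mm9 reference (NCBIM37) of 8 regions of listed genes whose midpoint lay in the first intron. They are read 5′ to 3′ along the gene, and the capitals mark CpG. Positions are counted from 1.
Dpf1, chr7:30089106-30089225, plus strand: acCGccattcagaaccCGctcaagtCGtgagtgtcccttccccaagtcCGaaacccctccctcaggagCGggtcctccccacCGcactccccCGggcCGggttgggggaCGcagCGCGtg
Smarcad1, chr6:64992986-64993105, plus strand: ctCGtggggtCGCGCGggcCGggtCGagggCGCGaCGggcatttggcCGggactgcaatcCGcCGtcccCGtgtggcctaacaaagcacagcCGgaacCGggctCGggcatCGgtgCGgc
Gtf2b, chr3:142428266-142428385, plus strand: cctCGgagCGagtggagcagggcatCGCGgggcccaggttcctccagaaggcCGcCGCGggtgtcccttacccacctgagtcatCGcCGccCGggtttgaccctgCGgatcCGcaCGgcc
Cdk7, chr13:101500566-101500705, minus strand: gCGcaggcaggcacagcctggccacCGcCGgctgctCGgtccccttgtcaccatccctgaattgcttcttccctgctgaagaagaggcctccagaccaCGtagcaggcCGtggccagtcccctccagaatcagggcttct
Tra2a, chr6:49213386-49213525, minus strand: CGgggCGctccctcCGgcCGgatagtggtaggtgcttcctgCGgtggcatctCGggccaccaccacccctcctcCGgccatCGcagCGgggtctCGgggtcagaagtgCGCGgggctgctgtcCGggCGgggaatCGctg
Psmc6, chr14:45949706-45949905, plus strand: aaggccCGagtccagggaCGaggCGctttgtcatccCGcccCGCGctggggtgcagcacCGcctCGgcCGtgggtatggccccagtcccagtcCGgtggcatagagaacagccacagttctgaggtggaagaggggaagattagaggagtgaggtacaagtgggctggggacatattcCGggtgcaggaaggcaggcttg
Rpl19, chr11:97888346-97888645, plus strand: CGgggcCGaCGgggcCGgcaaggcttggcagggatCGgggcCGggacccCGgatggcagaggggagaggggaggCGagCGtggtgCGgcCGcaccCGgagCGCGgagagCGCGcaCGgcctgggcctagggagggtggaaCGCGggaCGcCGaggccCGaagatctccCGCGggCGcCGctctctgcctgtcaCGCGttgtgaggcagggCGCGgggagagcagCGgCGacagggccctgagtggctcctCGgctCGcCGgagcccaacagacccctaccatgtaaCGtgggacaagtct
Tnni1, chr1:137697186-137697465, plus strand: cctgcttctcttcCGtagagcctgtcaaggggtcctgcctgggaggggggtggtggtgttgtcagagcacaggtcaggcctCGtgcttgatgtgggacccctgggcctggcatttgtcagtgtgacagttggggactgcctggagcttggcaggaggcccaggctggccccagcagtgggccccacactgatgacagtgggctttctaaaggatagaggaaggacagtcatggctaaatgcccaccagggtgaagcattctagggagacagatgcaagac
The BAF subunit gene Dpf1 held 11 CpG in 120 bp, and Smarcad1, an ATPase of another remodeler family, held 18 CpG in 120 bp. Gtf2b, the general transcription factor TFIIB, had 13 CpG in 120 bp. Cdk7, the kinase of TFIIH, had 6 CpG in 140 bp and the splicing regulator Tra2a had 15 in 140 bp. The proteasome ATPase gene Psmc6 had 11 in 200 bp and the ribosomal protein gene Rpl19 had 36 in 300 bp. Tnni1, the slow skeletal troponin I that the early heart uses, stood apart with 2 CpG in 280 bp, and its region was centred 915.5 bp into the gene.

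Short words bound by transcription factors were also searched in the 300 bp around each midpoint. The sequences below are the 30 bp around such a word in 5 of the named genes, with the word in capitals, read along the gene. They are shown because each word belongs to a factor discussed for promoters or for the heart, and a match is a description and not a binding site.
Ino80 YY1, chr2:119303287-119303316, minus strand: tcagcgccgcCGCCATCTTggggtcccagg
Tead4 TEAD, chr6:128250483-128250512, minus strand: cgcgcgcgtctCATTCCAgcgcccattccg
Mtf2 NKX2-5, chr5:108494954-108494983, plus strand: gcggttggcacCACTTAAgtgaccgaatga
Klf4 GATA, chr4:55544972-55545001, minus strand: catcggacctacTTATCTgccttgctgatt
Ctgf TATA, chr10:24315266-24315295, plus strand: ctcccgggagcgTATAAAagccagcgccgc
Ino80, the ATPase of the INO80 complex, held the YY1 word AAGATGGCG on the antisense strand, starting 43 bp after the TSS. Tead4, a TEAD transcription factor, held the TEAD word CATTCCA 255 bp after its own TSS. Mtf2, a Polycomb-associated protein, held the NKX2-5 word CACTTAA at 189 bp, and Klf4, a pluripotency factor, held the GATA word AGATAA on the antisense strand at 336 bp. Ctgf, a secreted matrix protein and YAP target, held TATAAA 30 bp after the nearest annotated TSS.

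The midpoints of downstream-centred regions lay close to the TSS. The median distance was 178.5 bp (95% interval from order statistics, 168.5 to 192.5 bp; n = 1464), with quartiles of 85.5 and 312.5 bp. There were 431 midpoints (29.4%) within the first 100 bp, 360 in the next 100 bp and 282 in the next, and 112 (7.65%) were 500 bp or farther. The median near edge was 27.5 bp downstream of the TSS and the median far edge 378 bp downstream. Widths ran from 20 to 980 bp with a median of 360 bp. The upstream-centred regions had a median midpoint of -97.5 bp and a median width of 400 bp.

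**Figure D1:**
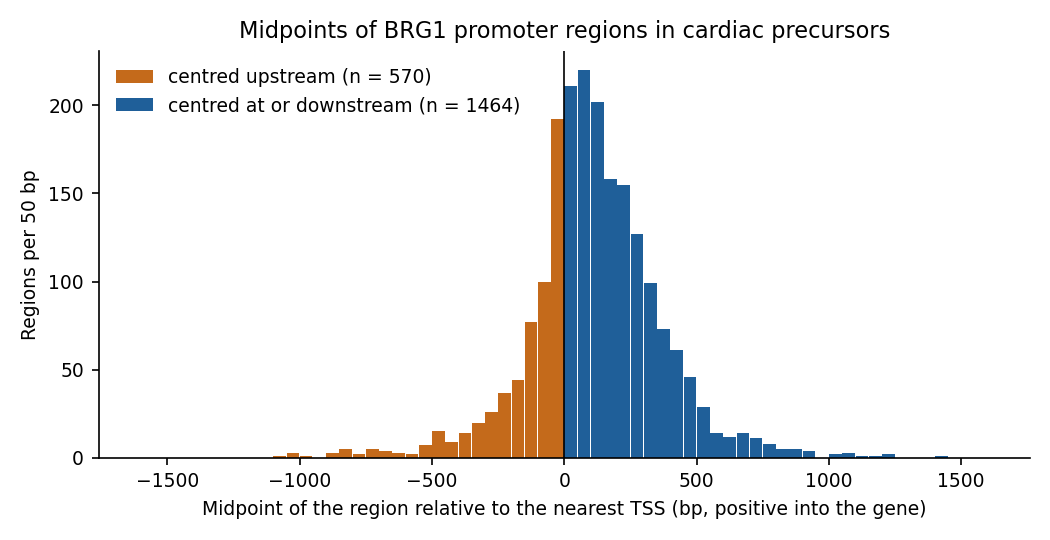
Number of regions per 50 bp (y axis) against the midpoint's distance from the nearest TSS in bp (x axis, positive into the gene), with downstream-centred regions in blue and upstream-centred regions in orange. The blue bars fall off over the first 500 bp, and 211 downstream-centred and 192 upstream-centred midpoints lie within 50 bp of the TSS, on either side of the dividing line.

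The TSS was covered by 618 of the regions (42.2%; Wilson interval, 39.7 to 44.8%), and the other 846 began wholly downstream of it. The regions that covered the TSS were wider, with a median of 500 bp against 260 bp for those wholly downstream, and their midpoints lay at a median of 80 bp against 272.5 bp. Midpoints fell in the first exon in 876 regions (59.8%), in the first intron in 565 (38.6%), in a later exon in 18 and in a later intron in 5. By the kind of sequence, 529 midpoints (36.1%) were in a UTR, 260 (17.8%) in coding sequence and 570 (38.9%) in an intron. The other 105 (7.17%) were in exon sequence annotated as neither UTR nor coding. The end of the first exon lay inside 824 regions (56.3%), and 452 regions (30.9%) covered an annotated start codon. Where a TSS had several transcripts, the shortest first exon was used for the exon end.

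These shares changed along the gene. The TSS was covered by 85.6% of the regions with midpoints within 100 bp, by 43.6% at 100 to 200 bp, by 24.1% at 200 to 300 bp and by 0 of the 112 regions at 500 bp or more. The share of midpoints in the first exon fell off from 88.9% to 31.2% over the same steps, and that in the first intron went from 10.9% to 60.7%. Coding sequence held 11.4% of the nearest midpoints and 27.7% of the farthest. The median GC content of the 300 bp around the midpoint was 74.0% within 100 bp and 70.7% at 500 bp or more, and the share that met the CpG island criteria was 96.1% and 82.1%. The GATA word was in 3 of the 431 nearest regions (0.696%) and in 8 of the 112 farthest (7.14%). These are descriptions of groups set by distance, with no test.

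**Figure D2:**
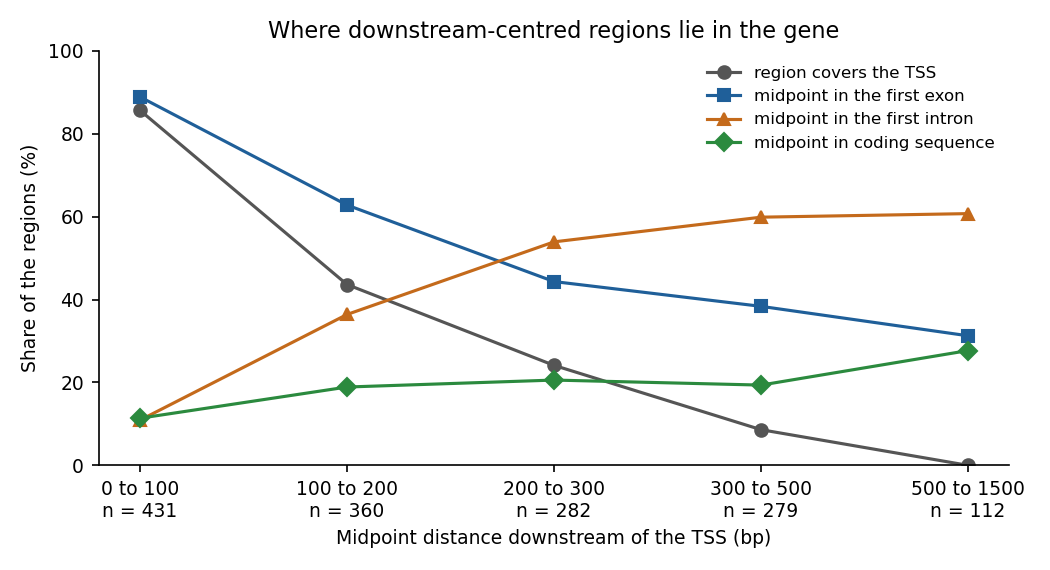
Share of downstream-centred regions in percent (y axis) that cover the TSS or have their midpoint in the first exon, the first intron or coding sequence, for 5 ranges of midpoint distance in bp (x axis, n under each). The lines for first exon and first intron cross between 100 and 300 bp, and no region with a midpoint 500 bp or more downstream covers the TSS.

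The list repeats some regions on identical rows, and the repeats followed the width. Of the downstream-centred regions 1214 stood on 1 row (median width 300 bp), 225 on 2 rows (720 bp) and 25 on 4 rows (840 bp). The labels and methods do not say what a repeated row means. Under 300 bp no region was repeated, from 300 bp to under 600 bp 10.4% were, and above that 57.7% were. More than 1 row was seen for 17.1% of downstream-centred and 21.6% of upstream-centred regions (difference -4.50 points, 95% interval -8.51 to -0.74, two-sided Fisher's exact test, adjusted exact p = 0.0503). Within the 2 wider ranges the differences were -3.18 and -1.10 points, with adjusted exact p of 0.697 and 1 over the ranges of width.

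The widest of the 25 regions on 4 rows, with ties in width taken by symbol, belonged to Rev1, a translesion DNA polymerase, to Kdm2b, a CpG-binding partner of Polycomb complexes, and to Pde3b, a cyclic nucleotide phosphodiesterase. They had widths of 980, 960 and 940 bp and midpoints 11.5, 258.5 and 460.5 bp into the gene. Of the regions just inside the width limit, 13 were 980 bp wide, among them those of Adam10, Btbd11 and Klf4. Just outside it, 9 regions of 1000 bp lay downstream, among them those of Arrdc3, Atxn7l1 and Hif1a. At the other limit, the midpoints of Acaca, Svop and Xkr5 lay 0.5 bp downstream of the TSS, and those of Cdkn2aip, Cnot6 and Osgin2 lay at -0.5 bp. The 3 farthest midpoints were in Pdgfb, a growth factor chain, at 1432.5 bp, in Irf2, an interferon regulatory factor, at 1236.5 bp, and in Hexim1, an inhibitor of the elongation kinase P-TEFb, at 1216.5 bp.

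Base composition was not used to choose the regions. It was compared between downstream-centred and upstream-centred regions by two-sided Fisher's exact tests. Differences have Newcombe intervals, with Benjamini-Hochberg adjustment over 21 tests. The rule set the side of the TSS on which the midpoints lay, and sequence was read at or beside them. These tests therefore compare sides of the TSS as well as regions. The clearest difference was the side of the TSS on which GC content was higher. GC content in the 500 bp after the TSS exceeded that in the 500 bp before it at 1259 of 1464 downstream-centred regions (86.0%) and at 262 of 570 upstream-centred regions (46%). The difference was 40.0 points (35.5 to 44.4, adjusted exact p = 3.21e-71), in a comparison chosen after the data were seen. The flanks hold the regions themselves in part, so this difference is tied in part to the rule. In the 300 bp around the midpoint the median GC content was 73.7% in downstream-centred and 73.3% in upstream-centred regions. At downstream-centred regions the median GC content was 71.2% after the TSS and 60.2% before it, and at upstream-centred regions it was 66.2% and 68.2%. CpG island genes without a region were protein-coding genes with no listed region within 1 kb. They were chosen because the 300 bp window centred 178.5 bp after their outermost TSS met the CpG island criteria. Of these 7405 genes 86.4% had the higher GC content after the TSS, a share set in part by that choice. Over all genes the share was 75.6%. For genes without a region the outermost TSS was used. With the outermost TSS for the listed regions too, the share was 94.1% of 1518 downstream-centred and 55.6% of 293 upstream-centred regions. The shares of listed and other genes were not tested against each other.

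Averaged over genes, GC content peaked 100 to 150 bp after the TSS at 73.1% for downstream-centred regions and 100 to 50 bp before it at 73.5% for upstream-centred regions. From 250 to 200 bp before the TSS the means were 60.4% and 67.8%, and from 200 to 250 bp after it they were 72.8% and 67.7%. The 300 bp window of highest GC content within 1 kb of the TSS was centred after the TSS at 75.7% of downstream-centred and 41.1% of upstream-centred regions. It was so at 79.9% of the CpG island genes without a region, which were chosen by a window after the TSS. The centre of this window lay within 150 bp of the region's midpoint for 866 downstream-centred (59.2%) and 302 upstream-centred regions (53.0%). Across the 1464 downstream-centred regions the position of that window and the midpoint had Pearson's r of 0.49 and Spearman's rho of 0.41. Across the 570 upstream-centred regions these were 0.26 and 0.25. They are given as a description since all regions come from 1 list. GC content moved with the class, and its part in the recovery or calling of the regions was not tested.

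**Figure D3:**
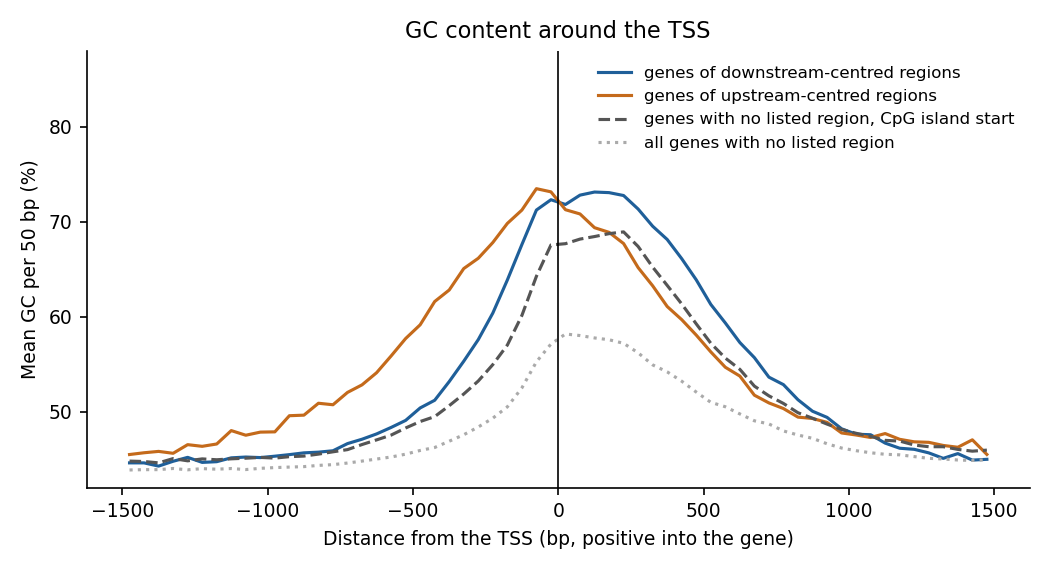
Mean GC content in percent per 50 bp (y axis) against distance from the TSS in bp (x axis, positive into the gene) for genes of downstream-centred regions (blue), of upstream-centred regions (orange), for genes without a listed region whose start met the CpG island criteria (dashed) and for all genes without a listed region (dotted). The blue curve peaks after the TSS at 73.1% and the orange curve before it at 73.5%. The genes of the dashed curve were chosen by a window after the TSS, which sets that curve in part.

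Nearly all downstream-centred regions met CpG island criteria, set as GC content of at least 55% and an observed to expected CpG ratio of at least 0.65 in the 300 bp around the midpoint. These were met by 1377 regions (94.1%) against 502 upstream-centred regions (88.1%), a difference of 5.99 points (3.23 to 9.11, adjusted exact p = 7.43e-05). The difference was 9.97 points without midpoints within 50 bp of the TSS and 11.3 points in genes with a single TSS position. In windows centred 178.5 bp after the outermost TSS, 42.9% of 22366 protein-coding genes met the criteria, and no such windows were read before the TSS. The median GC content was 73.7% (quartiles 70.3 and 76.7%) against 73.3% upstream, 59.0% over all genes and 68.0% in CpG island genes without a region. G exceeded C on the transcribed strand at 940 regions (64.2%) against 317 (55.6%), a difference of 8.59 points (3.86 to 13.4, adjusted exact p = 0.00197). The difference was 4.92 points over the regions as listed (adjusted exact p = 0.0841). The share was 61.2% over all genes and 66.7% in CpG island genes without a region.

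Words were searched on both strands of the same 300 bp, and 2 of 14 passed an adjusted p of 0.05. The windows of downstream-centred and upstream-centred regions are centred on opposite sides of the TSS, and genes' windows were read only after it. Whether a difference belongs to the regions or to the side of the TSS was not tested. The GATA word AGATAA was in 26 downstream-centred regions (1.78%) and 23 upstream-centred regions (4.04%), a difference of -2.26 points (-4.29 to -0.70, adjusted exact p = 0.0191). It was in 7.61% of all genes' windows and in 2.16% of those of CpG island genes without a region. The GATA difference did not pass with protein-coding transcripts only (-1.78 points, adjusted exact p = 0.0552), in 200 bp windows (-1.44 points, adjusted exact p = 0.0609) with the outermost TSS of each gene (-2.11 points, adjusted exact p = 0.106) or in genes with a single TSS position (-2.68 points, adjusted exact p = 0.283). The word TCTCGCGAG of BANP, which binds unmethylated CpG promoters, was in 5 (0.342%) and 8 regions (1.40%), a difference of -1.06 points (-2.42 to -0.23, adjusted exact p = 0.0348), and it did not pass among regions on 1 row (adjusted exact p = 0.151). Another 4 words had p under 0.05 before adjustment only. Of these, the YY1 word was in 44 regions (3.01%) against 8 (1.40%), a difference of 1.60 points (0.06 to 2.82, adjusted exact p = 0.0743). It passed with 1 region per gene (1.78 points, adjusted exact p = 0.0447) and among regions on 1 row (2.32 points, adjusted exact p = 0.0239). It was in 1.56% of all genes' windows and 2.93% of those of CpG island genes without a region. Its 44 matches in downstream-centred regions lay at a median of 34 bp after the TSS, and 29 of them read along the gene.

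The NRF1 word GCGCATGCG was in 0.478% against 1.58% of regions (adjusted exact p = 0.0503), the E-box CACGTG in 4.44% against 6.84% (adjusted exact p = 0.0689) and the TEAD word in 1.16% against 2.46% (adjusted exact p = 0.0743). In all genes' windows their shares were 0.514%, 4.47% and 3.01%. In those of CpG island genes without a region they were 0.999%, 6.16% and 0.986%. The E-box difference was -4.93 points and passed with the outermost TSS of each gene (adjusted exact p = 0.00486), and was -6.96 points in genes with a single TSS position (adjusted exact p = 0.0343). The most frequent word was GGGCGG, bound by SP and KLF factors, in 78.7% of downstream-centred and 81.6% of upstream-centred regions (difference -2.89 points, -6.57 to 1.06, adjusted exact p = 0.239), against 36.4% of all genes' windows and 63.4% of those of CpG island genes without a region. The ETS word CCGGAAG was in 6.56% and 6.67% (difference -0.11 points, -2.73 to 2.14). The NF-Y word CCAATCA, the CREB and ATF word TGACGTCA, TATAAA, the ZFP143 word ACTACAATT, the T-box word AGGTGTGA and the NKX2-5 word were each in under 2.5% of both classes and did not pass the test. ACTACAATT was in 0 of 1464 downstream-centred regions.

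Short first exons were less frequent at downstream-centred than at upstream-centred regions. A first exon under 200 bp was found at 44.8% against 52.6% (difference -7.82 points, -12.6 to -2.99, adjusted exact p = 0.00652). The difference between the classes was -10.5 points with the outermost TSS of each gene (34.3% of 1518 against 44.7% of 293, adjusted exact p = 0.00452). It was -20.7 points in genes with a single TSS position, where no choice of TSS exists (27.6% of 409 against 48.4% of 91, adjusted exact p = 0.00266). Without midpoints within 50 bp of the TSS it was -5.55 points and did not pass (adjusted exact p = 0.113). More than 1 TSS position, over 100 bp apart, was annotated for 64.6% of genes of downstream-centred regions and 80.7% of those of upstream-centred regions. The nearest of several TSSs decides the class, so these shares are tied to the rule and are given as a description. With the outermost TSS of each gene that difference was 4.19 points. More than 1 TSS position was annotated for 47.2% of all genes and 58.1% of CpG island genes without a region. A TSS of a noncoding gene on the opposite strand lay within 1 kb at 7.38% and 8.25% (difference -0.87 points, -3.70 to 1.59, adjusted exact p = 0.637). That share was 4.28% over all genes and 6.89% in CpG island genes without a region. The nearest TSS was the outermost of its gene at 663 downstream-centred regions (45.3%), and belonged to a transcript annotated as protein coding at 1210 (82.7%). At 59 of them (4.03%) and at 45 upstream-centred regions (7.89%) it was also the first coding base, an annotation without a 5′ UTR.

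**Figure D4:**
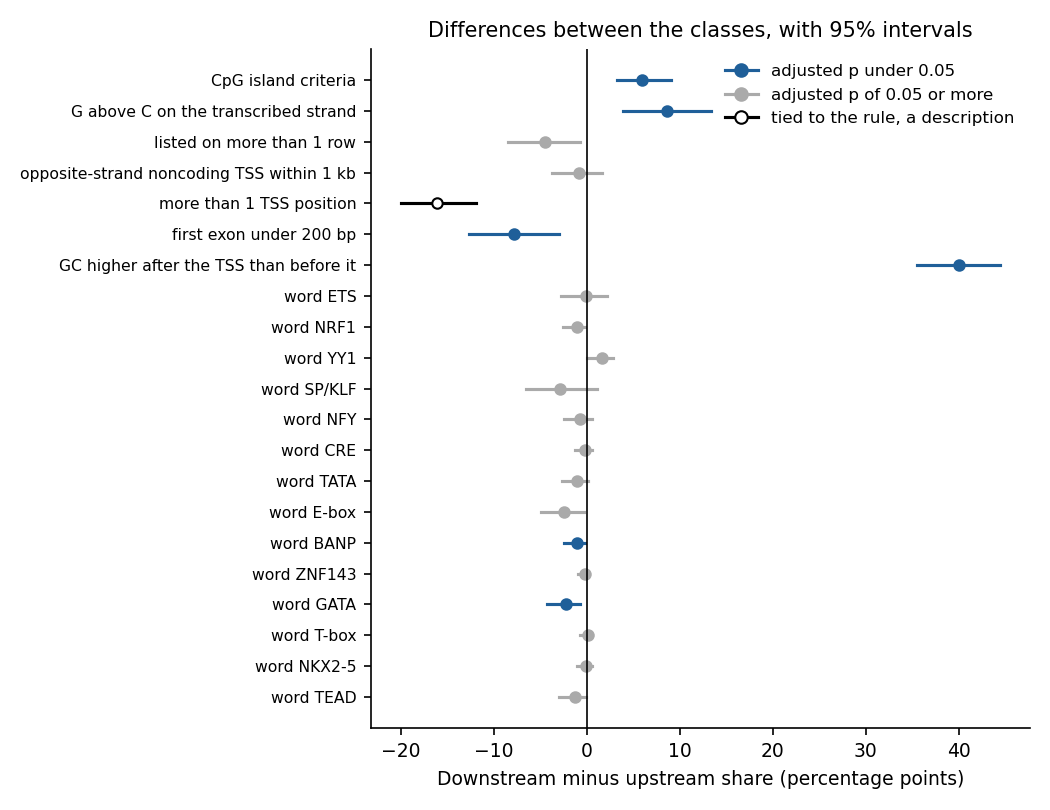
Difference in share between downstream-centred and upstream-centred regions in percentage points (x axis, downstream minus upstream) for the 21 measures (y axis), with points for the difference and bars for the 95% Newcombe interval, blue where the adjusted p is under 0.05, grey where it is not, and an open black point for the share with more than 1 TSS position, which is tied to the rule. The side of higher GC content, also tied to the rule in part, stands apart at 40.0 points, and the 14 words lie within 3 points of 0.

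The 1464 regions belonged to 1456 protein-coding genes of 22380 (6.51%) on 19 chromosomes, with 0 on X. Gene lists by function were counted against that background, with no test of a list. An upstream-centred region was found for 564 genes, and 17 genes had both kinds. Of 629 genes in 17 lists, 78 had a downstream-centred region, 42 with the midpoint in the first exon and 33 in the first intron. The Wilson interval of the share lay above the background in 7 lists and reached it in the other 10.

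Genes of signaling pathways were among the most often listed, and this held for regions of any class. Some listed region was counted for 19 of 36 effectors and inhibitors (52.8%) and for 25 of 46 ligands and receptors (54.3%). Of 22366 protein-coding genes, 19699 had no listed region within 1 kb. Of 36 intracellular effectors and feedback inhibitors, 12 (33.3%; 20.2 to 49.7%) had a downstream-centred region, against 2 with an upstream-centred one (1456 and 564 over all genes). The SMAD proteins, which carry TGF-beta and BMP signals to the nucleus, had 4 of these regions. The midpoint of Smad1 lay 411.5 bp, that of Smad2 147.5 bp, that of Smad3 555.5 bp and that of Smad4 518.5 bp into the gene. All 4 were in the first intron, against 38.6% of all downstream-centred regions. Of the Wnt pathway, Axin2, a scaffold and feedback inhibitor, had a 640 bp region on 2 rows centred at 131.5 bp, and the scaffold Apc had a 220 bp region at 89.5 bp. The secreted Wnt inhibitor Sfrp1 and the BMP inhibitor Nog had narrow regions of 180 and 120 bp at 121.5 and 167.5 bp. Spry1, a feedback inhibitor of FGF signals, had a 40 bp region at 1.5 bp, Sufu of the Hedgehog pathway one at 119.5 bp, and the Notch target Hes1 one at 781.5 bp. The Hes1 midpoint was counted from a TSS downstream of another annotated TSS of the gene. Tcf3 counts here by its symbol alone, which names the E2A gene in this annotation.

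Of 46 signaling ligands and receptors, 9 (19.6%; 10.7 to 33.2%) had a downstream-centred region. Of the 9 regions 7 covered the TSS, against 42.2% of all downstream-centred regions. The Wnt receptor Fzd2 had an 820 bp region on 2 rows at 430.5 bp, in the coding sequence of its long first exon. The coreceptors Lrp5 and Lrp6 had regions at 178.5 and 85.5 bp. Tgfb2, a ligand needed in heart cushion formation, had an 860 bp region on 2 rows at 253.5 bp, with GC content of only 47.0% around the midpoint, and 68.2% in the 500 bp before the TSS. Acvr2b, Fgfr1, Notch2, Dll1 and Smo, receptors or ligands of the activin, FGF, Notch and Hedgehog pathways, had midpoints between 31.5 and 264.5 bp.

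Chromatin regulators were counted in 3 lists. Of 28 BAF and PBAF subunit genes 4 (14.3%; 5.70 to 31.5%) had a region. In all 4 the midpoint was in the first intron, against 38.6% of all downstream-centred regions. Smarcd2, which encodes BAF60b, had a 300 bp region at 403.5 bp, Bcl11b one of 300 bp at 328.5 bp, Dpf1, which encodes BAF45b, one of 120 bp at 170.5 bp, and Ss18 one of 760 bp at 149.5 bp. Of 23 other remodelers 6 (26.1%; 12.5 to 46.5%) had a region, against 1 with an upstream-centred one and 10 (43.5%) with a listed region of any class. The ATPase genes Chd6, Smarca5 of the ISWI family and Ino80 had midpoints at 324.5, 328.5 and 153.5 bp, and Hells, Baz1b, a partner of Smarca5, and Smarcad1 at 65.5, 341.5 and 172.5 bp. GC content was higher after the TSS at all 6, against 86.0% of all downstream-centred regions.

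Of 38 Polycomb, trithorax and acetylation genes, 6 (15.8%; 7.44 to 30.4%) had a downstream-centred region, 7 an upstream-centred one and 15 (39.5%) one of any class. Ezh2, the methyltransferase of Polycomb complex PRC2, had a 580 bp region on 2 rows at 413.5 bp, and its partner Suz12 a 620 bp region at 367.5 bp. Mtf2, which recruits PRC2, had an 800 bp region on 2 rows at 249.5 bp, where GC content was 55.3%. Brd3, a reader of histone acetylation, and the deacetylase Hdac7 had regions of 200 and 220 bp at 12.5 and 124.5 bp.

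For genes of the heart the intervals reached the background. Of 37 cardiac transcription factors 5 (13.5%; 5.91 to 28.0%) had a downstream-centred region. All 5 lay in a window that met the CpG island criteria, against 94.1% of all downstream-centred regions. Srf, a regulator of muscle and growth genes, had a 920 bp region on 2 rows at 425.5 bp, in the coding sequence of the first exon, with GC content of 78.0% after and 57.4% before the TSS. Tbx18, a factor of the epicardium and sinus venosus, had a 660 bp region at 879.5 bp in the first intron. Tead4 and Mef2d, a MADS-box factor of muscle, had regions at 150.5 and 79.5 bp. Of 28 sarcomere and contraction genes 3 (10.7%; 3.71 to 27.2%) had a region. They were Ryr2, the calcium release channel of the heart, at 416.5 bp, Tnni1 at 915.5 bp, and Tpm1, the muscle tropomyosin, at 13.5 bp. The Tpm1 midpoint was counted from a TSS inside the gene, downstream of another annotated TSS.

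Lists of other cell states gave counts between 0 and 4. Of 21 pluripotency and early mesoderm genes 4 (19.0%; 7.67 to 40.0%) had a region, 0 had an upstream-centred one and 5 (23.8%) had one of any class. Klf4 had a 980 bp region on 2 rows at 249.5 bp, Sall4, a zinc-finger factor, one at 833.5 bp, Mixl1, a mesendoderm homeobox factor, one at 79.5 bp, and Fgf8, a ligand of early mesoderm, one at 768.5 bp. Of 21 neural genes 1 had a region, Rest, which represses neuronal genes outside neurons, with 980 bp on 2 rows at 214.5 bp. Of 19 endothelial and blood genes 0 had one (Wilson interval up to 16.8%). Of 24 immediate early genes 2 had a region, Ctgf at 127.5 bp and Ier5 at 790.5 bp in coding sequence.

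Genes that every cell uses varied by list. Of 43 translation factors 6 (14.0%; 6.56 to 27.3%) had a region, Eif4g3, a scaffold of cap binding, with 740 bp on 2 rows at 398.5 bp, Eif1b at 131.5 bp and the cap-binding protein gene Eif4e2 at 34.5 bp among them. Of 53 ubiquitin and proteasome genes 7 (13.2%; 6.55 to 24.8%) had one. The ubiquitin conjugating enzymes Ube2e1, Ube2n and Ube2d2 had midpoints at 187.5, 229.5 and 279.5 bp. All 3 regions covered the TSS, against 42.2% of all downstream-centred regions. Of 44 genes of RNA polymerase II, pausing and Mediator 4 (9.09%; 3.59 to 21.2%) had one. Of the 4 regions 0 covered the TSS, against 42.2% of all downstream-centred regions. The 4 genes were Cdk7 at 248.5 bp, the Mediator kinase Cdk8 at 224.5 bp, Gtf2b at 135.5 bp and Hexim1.

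In the other 3 lists the intervals reached the background. Of 50 splicing genes 3 (6%; 2.06 to 16.2%) had a region, Srsf4 at 174.5 bp, Tra2a at 576.5 bp and U2af1, which reads the 3′ splice site, at 3.5 bp. Of 75 ribosomal protein genes 2 (2.67%; 0.73 to 9.21%) had one, Rpl19 at 224.5 bp and Rps20 at 49.5 bp. Of 43 cell cycle genes 4 (9.30%; 3.68 to 21.6%) had one. Ccne1, the G1/S cyclin E1, had a 720 bp region at 7.5 bp, Wee1, the inhibitory kinase of mitotic entry, a 140 bp region at 191.5 bp, and E2f5 and the cyclin gene Ccnd3 had midpoints at 120.5 and 69.5 bp.

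**Figure D5:**
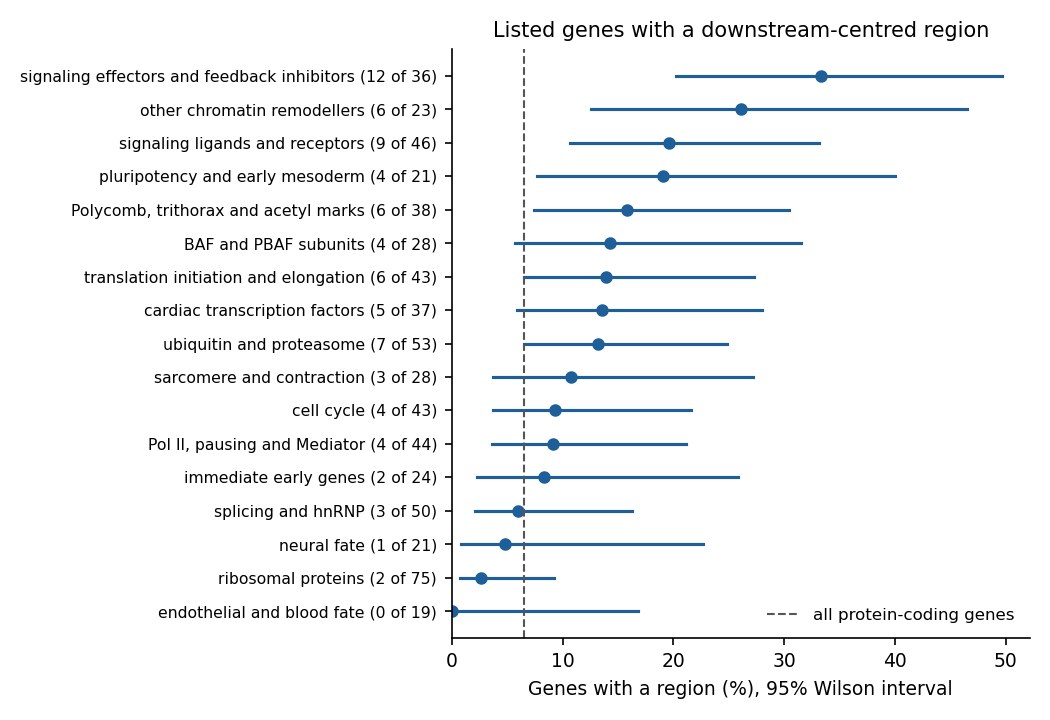
Share of the genes of each list with a downstream-centred region in percent (x axis) by list (y axis, counts in brackets), with bars for the 95% Wilson interval and a dashed line at the 6.51% of all protein-coding genes. Signaling effectors and inhibitors reach 33.3%, and ribosomal proteins and endothelial and blood genes lie lowest at 2.67% and 0%.

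A few genes carried more than 1 region. There were 8 genes with 2 downstream-centred regions, each region counted from a different TSS. In Nsd1, a histone H3K36 methyltransferase, regions of 600 and 540 bp on 2 rows each lay 742.5 and 499.5 bp after their TSSs. In Rai1, a chromatin-binding protein, regions of 800 and 860 bp on 2 rows each lay at 59.5 and 454.5 bp. Another 17 genes had a downstream-centred and an upstream-centred region at different TSSs. In the imprinted growth factor gene Igf2 the midpoints were at 114.5 and -1.5 bp, in Hes1 at 781.5 and -664.5 bp, and in Tpm1 at 13.5 and -92.5 bp. Nsd1, Rai1 and Igf2 were chosen after their values were seen.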

How the data were processed

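BRG1 ChIPseq of wild-type CPs was analysed from 1 list of positions, deposited by the authors in 3 columns with no header, which names a chromosome, a start and an end in bp on mm9. It holds no score, and 0 columns of other samples were set aside. The authors trimmed reads with fastq-mcf, aligned them with Bowtie, kept those of high mapping quality and called enrichment in bins against input. How the libraries were combined is not given in the sources used here. Starts were read as counted from 0, all lay on a 20 bp grid, and the 4791 rows were reduced to 3473 distinct regions.

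Regions were placed against GENCODE M1 transcripts and the NCBIM37 (mm9) sequence with Python 3.11.15, numpy 2.4.6, scipy 1.17.1, pysam 0.24.0, samtools 1.23.1 and matplotlib 3.10.9. Members and gene lists were chosen with earlier results of these data known. Downstream-centred and upstream-centred regions were compared by two-sided Fisher's exact tests with Newcombe intervals and Benjamini-Hochberg adjustment over 21 tests, checked on simulated data. The number of TSS positions was among the 21 but is given as a description, since the rule sets it in part. The side of higher GC content is also tied to the rule in part. Words and base composition were read in 300 bp around the midpoint. For the genes used as background they were read at the median downstream distance from the outermost TSS. Genes were named by rule: per list up to 3 with a region, by rows, then width, then symbol (2 for ribosomal proteins), and the 3 regions on most rows, the 3 farthest, and those beside the limits. Other listed genes and genes with several regions were named after their values were seen. Of the listed symbols 3 were not in the annotation. The values of 1 listed gene are not reported here. Alternatives changed the annotation, the choice of TSS, width, reach, window, the subset of regions and row handling. The reading of starts as counted from 0 was not varied.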

Additional observations from a re-analysis of the deposited data

How the results depend on the processing

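Over 13 results and 113 alternatives (55 planned, 58 chosen after seeing the data), 87 kept their direction and their side of the threshold or moved little. The number of regions stayed within 1.5 times of 1464, from 997 (narrower than 500 bp) to 1764 (each row counted). The median distance was 202.5 bp with protein-coding transcripts only, 266.0 bp with the outermost TSS of each gene and 268.0 bp with the most upstream TSS overlapped. The difference in repeated rows passed the threshold, at -6.07 points without midpoints within 50 bp of the TSS, -5.04 with 1 region per gene, -4.97 with protein-coding transcripts and -11.8 in genes with a single TSS position. The first exon difference was -5.55 points without midpoints within 50 bp and no longer passed, against -10.5 with the outermost TSS and -20.7 in genes with a single TSS position, which both passed. G above C fell short at 4.92 points over the regions as listed and 7.28 in genes with a single TSS position. The noncoding TSS difference was 0.094 points within 500 bp, and that for more than 1 TSS position 4.19 with the outermost TSS. The number of words past the threshold, 2 in the report, was 4 without midpoints within 50 bp, 6 with 1 region per gene, 5 in 200 bp windows, 4 over the regions as listed, 1 in genes with a single TSS position and 4 without TSSs at a first coding base. The BANP difference was 0.978 points in genes with a single TSS position. The causes were not tested. The higher GC content after the TSS kept its direction and threshold in every alternative run on it, from 34.7 to 50.0 points. The CpG island criteria did so too, from 4.50 to 11.3 points. Each alternative still split the regions by the side of the midpoint. The tie of the GC difference to the rule was therefore not removed.

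No paired analysis was possible because neither ChIP library has values of its own here. Leaving out a library and a stricter calling threshold were not run for the same reason. Under 300 bp no region was repeated, so that range gave no value, and genes with a single TSS position gave none for more than 1 TSS position. Depth, height and the spread between libraries are unknown.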
